A study of Homo sapiens with 16 samples.

Results

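The major histone gene cluster is the stretch of human chromosome 6 that holds most of the replication-dependent histone genes. It was taken here as the 1.9 Mb of the hg19 build that begin at position 26000000, and its members were all ATAC-seq peaks inside these limits. Overlapping peaks of the 16 libraries, by 1 base or more, were joined into regions, which gave 112 regions in the cluster out of 131357 in the genome. Peaks in the first 0.3 Mb and in the last 0.2 Mb formed a left and a right clump, with 33 and 24 regions. The stretch of 1.4 Mb between them held the other 55 regions.

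Histone genes of this cluster are switched on together when cells copy their DNA, and each division needs a large supply of their products. The core histones H2A, H2B, H3 and H4 form the nucleosome, around which DNA is wrapped, and histone H1 binds the linker DNA where it enters and leaves the nucleosome. The genes are short and lack introns, and their messages end in a stem-loop in place of a poly(A) tail. In the nucleus the cluster is gathered into histone locus bodies, which hold the NPAT coactivator and the machinery for 3′ end processing. Interspersed tRNA genes, butyrophilin genes and zinc finger genes share the same stretch of chromosome.

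Open chromatin was mapped in DND41 and MOLT4 cells, 2 long-established lines from human T-cell acute lymphoblastic leukaemia, grown in RPMI-1640 with serum and antibiotics. ATAC-seq uses the Tn5 transposase to tag DNA that nucleosomes leave accessible, and a peak marks a place where such tags pile up. Each line received DMSO, the solvent control, or ACBI-1 at 100 nM. Cells were harvested after 3 h or 24 h, which makes 8 groups, and every group had 2 libraries. ACBI-1 is a PROTAC, a molecule that brings its targets to an E3 ubiquitin ligase, and it leads to degradation of SMARCA2 and SMARCA4, the ATPases of SWI/SNF, and of its subunit PBRM1. SWI/SNF complexes slide and evict nucleosomes and keep many regulatory sites open. Whether both libraries of a group stem from separate cultures is not stated, and the spread on which the p-values rest may therefore be technical. In 8 of the 16 samples the cell line given among the characteristics was not the one in the title. Lines were taken from the titles, which matched the code inside the peak names in 16 of 16 files.

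The deposited lists held 26145 to 46712 peaks per library and gave positions only, without heights or read depth. All 8 lists of the 24 h cells carried another tag in their peak names than the 8 lists of the 3 h cells. The time of harvest, the preparation and any setting of the peak calling that went with this tag cannot be told apart. The T-cell identity of the lines was not checked, because the gene table used here is on another build and no gene was assigned to a peak.

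RefSeq's gene table for the GRCh38.p14 build, used for names and order only, placed 53 protein-coding histone genes between H1-1 and H2BC17. There were 6 H1, 11 H2A, 14 H2B, 10 H3 and 12 H4 genes among them. They stood in 3 runs, where a run ended once 3 or more other protein-coding genes followed each other. The first run, from H1-1 to H4C8, had 32 histone genes. After it came 9 other genes, from BTN3A2, a butyrophilin that takes part in recognition by gamma delta T cells, to the zinc finger gene ZNF322. The second run, from H2BC11 to H2AC12, had 5 histone genes and was followed by 5 other genes, from PRSS16, a serine protease of the thymus, to ZNF184. The third run, from H2BC13 to H2BC17, had 16. The same table listed 98 tRNA genes between the first and the last histone gene.

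Promoters of the cluster are shown because they carry the DNA letters that the gene families share and those that set them apart. For each family the first gene in chromosome order with an entry in RefSeq's GRCh38.p14 promoter table was taken, and the 250 bases before the gene's start are printed 5′ to 3′ along the gene. Capitals mark CCAAT, the box bound by NF-Y; TATAAA, the TATA box; ATTTGCAT, the octamer bound by POU2F1; and AAACACA, an element of H1 promoters. Each was searched on both strands, and on the other strand CCAAT reads as ATTGG, the TATA box as TTTATA, the octamer as ATGCAAAT and the H1 element as TGTGTTT. No marked match overlapped another.
H1-1, GRCh38.p14 chr6:26017788-26018037, minus strand: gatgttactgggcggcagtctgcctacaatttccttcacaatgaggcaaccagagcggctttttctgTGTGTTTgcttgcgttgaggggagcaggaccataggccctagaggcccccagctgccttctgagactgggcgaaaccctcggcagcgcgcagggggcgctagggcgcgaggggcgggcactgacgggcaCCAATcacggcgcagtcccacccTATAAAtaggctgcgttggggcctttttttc
H2AC4, GRCh38.p14 chr6:26033619-26033868, minus strand: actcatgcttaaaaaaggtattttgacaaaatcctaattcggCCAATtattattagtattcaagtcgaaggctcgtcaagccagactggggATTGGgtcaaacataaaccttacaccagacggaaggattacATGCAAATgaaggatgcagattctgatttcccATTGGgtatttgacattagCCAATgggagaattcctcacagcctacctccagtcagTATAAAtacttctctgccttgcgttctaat
H2BC3, GRCh38.p14 chr6:26043714-26043963, minus strand: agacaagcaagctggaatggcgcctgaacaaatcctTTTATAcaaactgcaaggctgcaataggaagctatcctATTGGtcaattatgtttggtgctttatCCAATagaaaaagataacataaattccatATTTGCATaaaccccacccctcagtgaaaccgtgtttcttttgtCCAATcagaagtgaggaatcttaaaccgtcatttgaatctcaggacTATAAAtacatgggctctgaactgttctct
H3C1, GRCh38.p14 chr6:26020201-26020450, plus strand: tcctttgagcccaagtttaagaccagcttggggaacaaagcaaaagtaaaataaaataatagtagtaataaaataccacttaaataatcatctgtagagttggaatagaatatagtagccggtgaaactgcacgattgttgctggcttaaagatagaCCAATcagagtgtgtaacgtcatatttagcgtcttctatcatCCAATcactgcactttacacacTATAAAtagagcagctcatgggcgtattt
H4C2, GRCh38.p14 chr6:26027284-26027533, minus strand: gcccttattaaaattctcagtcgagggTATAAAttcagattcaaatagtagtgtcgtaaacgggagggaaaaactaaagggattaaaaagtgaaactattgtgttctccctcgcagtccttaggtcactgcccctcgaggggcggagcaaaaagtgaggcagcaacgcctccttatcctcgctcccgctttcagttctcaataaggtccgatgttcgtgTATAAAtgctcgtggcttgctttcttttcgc

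The H1-1 promoter held 1 CCAAT box starting 54 bases before the gene's start, a TATA box 31 bases before it and the H1 element 183 bases before it. In the H2AC4 promoter the octamer stood 118 bases before the start, with 4 CCAAT boxes and a TATA box at 30 bases. The H2BC3 promoter had the octamer at 120 bases, 3 CCAAT boxes and 2 TATA boxes. H3C1, a gene of histone H3, had 2 CCAAT boxes and a TATA box at 29 bases, and H4C2, a gene of histone H4, had 2 TATA boxes and no CCAAT. The 5 shown thus shared a TATA box close to the start and differed in the elements before it.

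Entries were found for 48 of the 53 histone genes, with 52 promoters in all. CCAAT was present in 86.5% of the 52 and in 32.0% of all 35116 promoters of the table. It was in all 6 H1, 10 H2A, 16 H2B and 10 H3 promoters and in 3 of 10 H4 promoters. The TATA box was in 65.4% of the histone promoters and in 10.7% of all promoters. The octamer was in 40.4% against 1.63%, and it sat in 8 of 10 H2A and 12 of 16 H2B promoters but in 1 of 10 H3 promoters and in no H1 or H4 promoter. The element AAACACA was in 6 of 6 H1 promoters, in none of the other histone promoters and in 4.82% of all promoters. These matches describe the letters of a reference promoter, and the peaks, on hg19, were not joined to them.

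Most open regions of the histone cluster were open in every library. A peak was present in all 16 libraries at 58 of the 112 regions, 51.8%, while this held for 9.13% of the 131245 regions in the rest of the genome. Regions seen in a single library made up 16.1% of the cluster and 51.0% of the rest. The 18 single-library regions of the cluster had peaks of 132 to 440 bp. Another 10 regions were open in 14 or 15 libraries, and 26 were open in 2 to 13.

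Averaged over each part, open regions were denser in the clumps than in the stretch. The limits of these parts were chosen with earlier results of these data known, so the contrast carries no test. The left clump had 110 regions per Mb, the right clump 120 and the stretch between 39.3. Within the stretch, the 100 kb that begin at 26500001 held 12 regions, while each 100 kb of the clumps held 10 to 14. Always-open regions, those with a peak in all 16 libraries, numbered 22 of 33 in the left clump, 11 of 24 in the right clump and 25 of 55 in the stretch. Midpoints of neighbouring always-open regions lay a median of 10.4 kb apart in the left clump, 8.56 kb in the right clump and 21.3 kb in the stretch, against 79.2 kb over the whole genome. When the genome was divided into 30352 windows of 100 kb, the window that begins at 26200001 held 9 always-open regions, and no other window held as many. The neighbouring window that begins at 26100001 held 7, a number reached by 17 windows in all.

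The stretch between the clumps was uneven. No library had a peak from 26660530 to 26923869, a gap of 263 kb, or from 26924911 to 27046444, a gap of 122 kb. Between these gaps stood a single always-open region at chr6:26923870-26924910, in which peaks of 912 to 1037 bp were called in the 16 libraries. The map of regions by library shows both clumps, this isolated region and the empty ground around it.

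**Figure D1:**
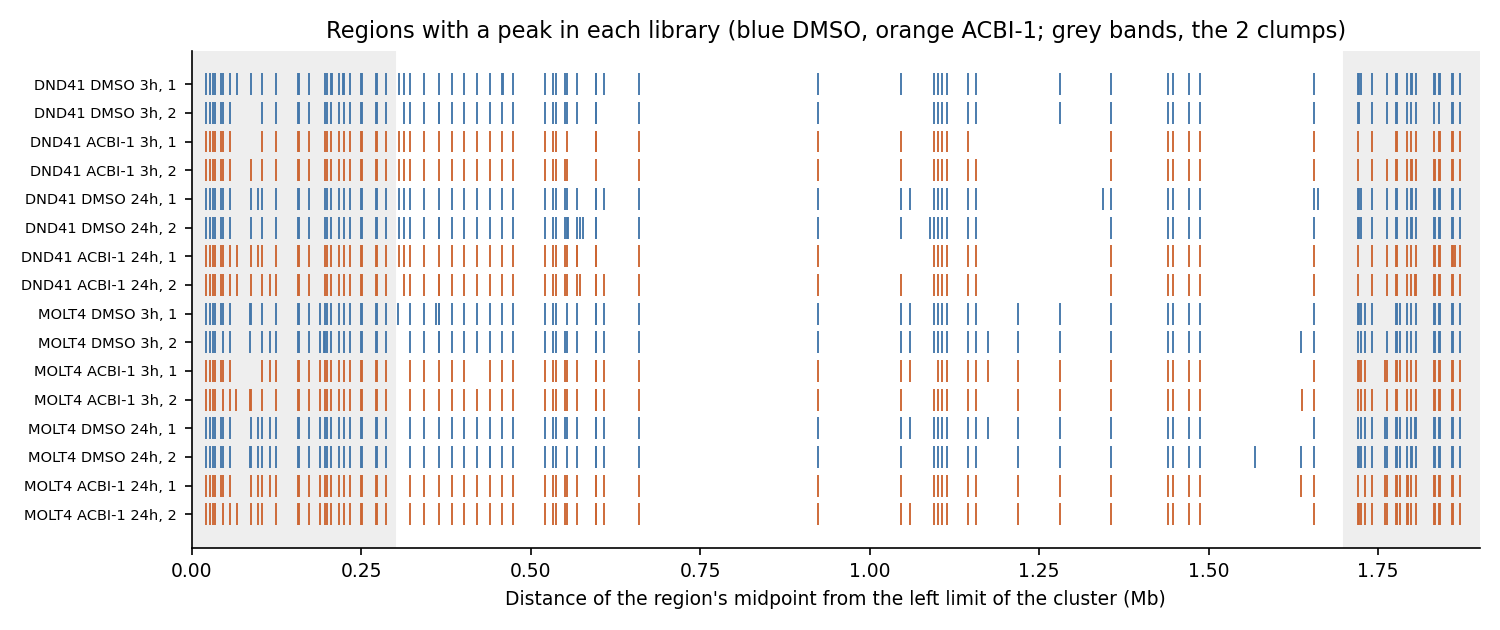
Regions of the histone cluster with a peak in each of the 16 libraries. The x axis gives the distance of the region's midpoint from the left limit of the cluster in Mb, each row is a library (blue DMSO, orange ACBI-1), each tick is a region with a peak, and grey bands mark the 2 clumps. The 58 regions open in all 16 libraries run through every row, and the gaps of 263 kb and 122 kb are empty in all of them.

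Cluster peaks were broad for their lists. The median cluster peak was wider than 61.7% to 76.9% of the peaks of its own list, depending on the library. The always-open regions of the cluster averaged 754 bp over the 16 libraries, close to the 729 bp of always-open regions elsewhere. Single regions of the cluster ran from 348 to 1445 bp. More than 1 peak was called within the region in at least 1 library at 25 of the 58 (43.1%), against 19.5% of always-open regions elsewhere. The widest, at chr6:26020536-26022549 in the left clump, had a summed peak width of 1445 ± 287 bp (SD, n = 16). The second, at chr6:26123082-26124803 in the same clump, had 1366 ± 223 bp, and the third, at chr6:26537454-26538928 in the stretch, had 1275 ± 88.2 bp. Of the 10 widest, 5 lay in the left clump, 5 in the stretch and 0 in the right clump.

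The treatment question is whether loss of SWI/SNF activity closed the histone cluster along with other sites. Cluster peaks fell slightly in number with ACBI-1 in the lists as deposited, and peaks elsewhere fell by more. In DND41 cells at 3 h the DMSO libraries had 93 and 84 cluster peaks and the ACBI-1 libraries 76 and 83. At 24 h the same line had 89 and 88 with DMSO and 83 and 87 with ACBI-1. MOLT4 cells at 3 h had 96 and 97 with DMSO and 90 in each ACBI-1 library. At 24 h they had 92 and 96 with DMSO and 89 and 90 with ACBI-1. Within each line and time both ACBI-1 libraries lay below both DMSO libraries, although the ranges over all libraries overlapped.

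Over the 16 libraries the DMSO mean was 91.9 ± 4.58 cluster peaks and the ACBI-1 mean 86.0 ± 5.01 (SD over 8 libraries per arm). Stratified by line and time, the number fell by 6.44%, a log2 change of -0.10 (SE 0.03, exact permutation test, two-sided, adjusted p = 0.00401), and p itself, 0.00154, is the smallest that the 1296 exchanges can give. Peaks outside the cluster fell by 0.47 on the log2 scale in the same libraries ( SE 0.06, exact permutation p = 0.00154, adjusted p = 0.0150). The cluster call depended on how lists were made comparable: with peaks under 170 bp removed from every list it was lost (log2 -0.06, adjusted p = 0.258 by the same permutation test), and with each list reduced to its 26145 widest peaks cluster peaks rose with ACBI-1 (log2 0.15, adjusted p = 0.00502). The call was also lost when labels were exchanged over all 16 libraries without strata (adjusted p = 0.0747 by the permutation test).

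Cluster peaks took a larger share of the list after ACBI-1. They made up 0.191% to 0.245% of the list in DMSO libraries, with a median of 0.214%, and 0.250% to 0.313% in ACBI-1 libraries, with a median of 0.281%. The groups did not overlap. Relative to peaks outside the cluster the number rose by 29.8% (log2 0.38, SE 0.05, exact permutation adjusted p = 0.00401). With equal list lengths the rise was smaller, at 0.15 on the log2 scale (SE 0.03, adjusted p = 0.00502 by the same permutation test). In lists of equal length share and number are almost the same measure, so this repeats the rise in number given above. In the lists as deposited the direction held in DND41 cells (32.3%), MOLT4 cells (27.4%), at 3 h (34.0%) and at 24 h (25.8%). Each of these 4 subsets allows no p below 0.0556, and each had p = 0.0556 by the exact permutation test.

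**Figure D2:**
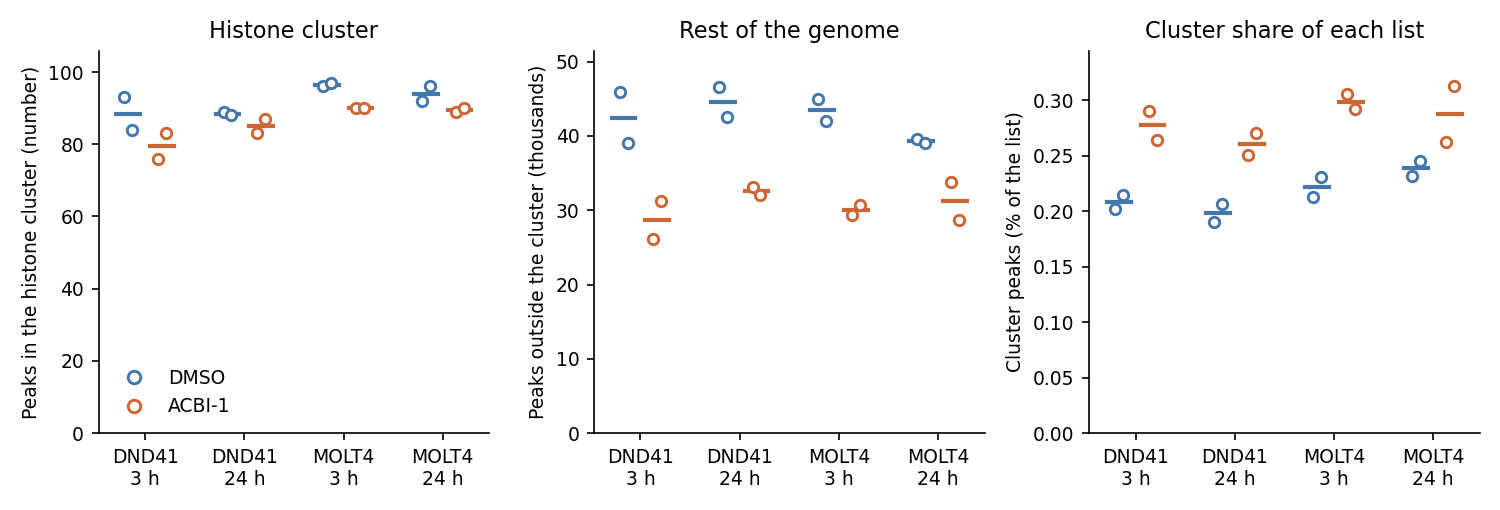
Peaks in the histone cluster, peaks outside it and the cluster's share of each list, for DMSO (blue) and ACBI-1 (orange) by line and time. Circles are libraries, 2 per group, and bars are their means; the y axes give the number of peaks, the number in units of 1000 and percent. Cluster peaks run from 84 to 97 with DMSO and from 76 to 90 with ACBI-1, while the ACBI-1 shares, 0.250% to 0.313%, all lie above the DMSO shares.

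No difference in this fall between lines or times passed the test. Cluster peaks fell by 7.11% in DND41 cells and fell by 5.76% in MOLT4 cells, and the difference between lines had an adjusted p of 0.894 (exact permutation test). At 3 h they fell by 8.45% and at 24 h they fell by 4.37%, with an adjusted p of 0.549 for the difference (exact permutation test). Those p-values missed the threshold, which does not show that the responses were alike. The clumps and the stretch were compared through the ratio of their peak numbers, which changed by 0.04 on the log2 scale with ACBI-1 (SE 0.05, exact permutation adjusted p = 0.613).

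Bases under cluster peaks and peak widths did not pass the test for treatment. Cluster peaks covered 36.5 to 67.1 kb per library with DMSO, with a median of 54.5 kb, and 33.9 to 63.4 kb with ACBI-1, with a median of 52.4 kb. The log2 change was -0.10 (SE 0.08, exact permutation adjusted p = 0.370). The median cluster peak measured 538 ± 100 bp with DMSO and 535 ± 85.3 bp with ACBI-1 (SD over 8 libraries per arm, exact permutation adjusted p = 0.941).

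Sites open in DMSO libraries were kept after ACBI-1 in the cluster more often than elsewhere. For each library, the reference sites were the regions open in the pair of DMSO libraries of the same line at the opposite time, so no library helped to choose the sites on which it was scored. This gave 70 to 80 sites per library in the cluster. DMSO libraries had a peak at 90.8% to 100% of them, with a median of 97.4%, and ACBI-1 libraries at 88.2% to 97.4%, with a median of 94.8%. In the rest of the genome DMSO libraries had a peak at 83.7% to 93.9% of the sites, with a median of 85.7%, and ACBI-1 libraries at 56.4% to 77.7%, with a median of 65.0%. The groups overlapped in the cluster and were apart elsewhere. The difference of cluster minus rest was 19 percentage points larger with ACBI-1 than with DMSO (SE 0.949, exact permutation adjusted p = 0.00401). With equal list lengths, which also redefine the sites, it was 12.1 points (SE 0.615, adjusted p = 0.00502 by the same permutation test). These SEs and p-values describe spread between libraries, not between the cluster sites scored in each.

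Broad sites elsewhere were lost less often than narrow ones, so the sites were also split into 3 groups of equal number by their width in the DMSO libraries that defined them. Broad sites made up 55.2% of the cluster sites, middle ones 34.4% and narrow ones 10.5%. In the middle group ACBI-1 libraries had a peak at 89.7% to 100% of the cluster sites and DMSO libraries at 90.9% to 100%, with a mean of 97.1% in each arm. The same group elsewhere fell from 93.5 ± 2.77% with DMSO to 68.0 ± 13.3% with ACBI-1 (SD over 8 libraries per arm). The cluster minus rest difference moved by 25.5 points (SE 0.803, exact permutation p = 0.00154, adjusted p = 0.00231 over the 3 groups), and with equal list lengths it was 14 points (SE 1.71, exact permutation p = 0.00154). In the lists as deposited the cluster mean was the same in both arms, so the 25.5 points are the fall elsewhere. Their SE and p describe spread between libraries, not between the 22 to 29 middle cluster sites scored in each. Middle sites were similar in width in the cluster and elsewhere, at 473 and 466 bp on average.

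Broad sites stayed in both arms of the cluster, at 99.7 ± 0.769%, and moved elsewhere from 99.5% with DMSO to 95.5% with ACBI-1. The cluster minus rest difference there was 4.05 points (SE 0.272, exact permutation adjusted p = 0.00231), and 2.18 points with equal list lengths (SE 0.503, exact permutation p = 0.00154). As the cluster mean did not move in the lists as deposited, the 4.05 points are the fall elsewhere. With 38 to 46 broad cluster sites per library, so small a difference is a matter of few sites, which the SE and p between libraries do not reflect. Narrow sites fell in both places, from 78.3% to 59.2% in the cluster and from 70.7% to 37.2% elsewhere. With 6 to 10 narrow cluster sites per library the difference of 14.3 points (SE 6.56) did not pass the test (exact permutation adjusted p = 0.0586). The plot of reference sites by width shows the 3 groups.

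**Figure D3:**
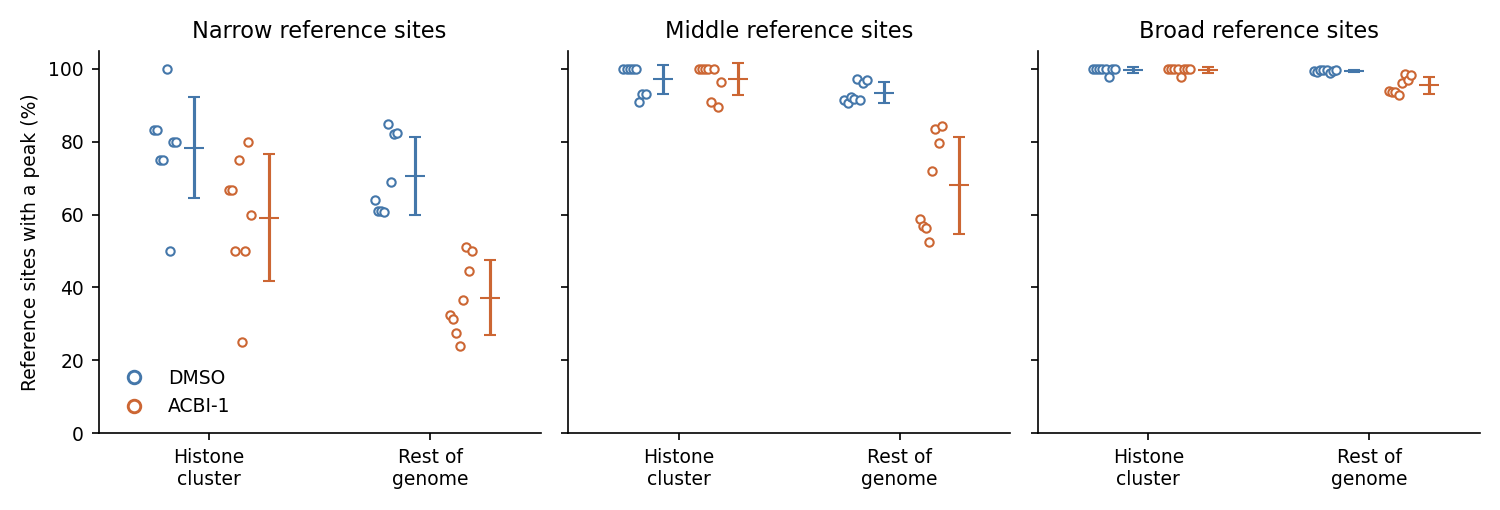
Percent of reference sites with a peak, for narrow, middle and broad sites, in the histone cluster and in the rest of the genome (blue DMSO, orange ACBI-1). Circles are libraries, 8 per arm, and the bars beside them are the mean and SD. Among middle sites the cluster stays at a mean of 97.1% in both arms, while the rest moves from 93.5% to 68.0%.

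Few cluster regions lost their peak in any line and time. A region counted as lost when both DMSO libraries of a line and time had a peak and neither ACBI-1 library did. DND41 cells lost 3 of 70 cluster regions at 3 h (4.29%, against 20.9% in the rest of the genome) and 3 of 76 at 24 h (3.95%, against 27.1%). MOLT4 cells lost 1 of 77 at 3 h (1.30%, against 22.3%) and 0 of 80 at 24 h (against 27.8%). A region in both ACBI-1 libraries and neither DMSO library was found once in DND41 cells at 24 h and once in MOLT4 cells at 24 h. These counts rest on 2 libraries per group and carry no test.

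Tested region by region with labels exchanged within line and time, no cluster region was called for treatment. Only 3 of the 112 had a pattern that could reach p = 0.05, and 0 of the 3 were called or had an unadjusted p of 0.05 or less by the exact permutation test. Over the genome the test called 28.0% of 8082 testable regions, 2251 lost and 9 gained with ACBI-1. No cluster region was open in all 8 libraries of 1 arm and in none of the other, a pattern shown by 0.159% of all regions for DMSO and by 0.000761% for ACBI-1. Regions open in every library cannot be called, which alone keeps 58 of the 112 out of this test. Among the 89 cluster regions open in at least 4 libraries, 16 had a peak in fewer ACBI-1 than DMSO libraries, 4 in more and 69 in as many. In the rest of the genome, 55.0% of such regions had fewer, 7.96% more and 37.0% as many. Always-open regions count as having as many by definition, and they were 58 of the 89 in the cluster and 11979 of 45032 elsewhere. The shares therefore differ partly because the cluster holds more always-open regions.

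The cluster regions with the largest loss were a pair in the right clump, which are named here after their values were seen. At chr6:27721911-27722215 a peak was present in 4 of 4 DND41 DMSO libraries, with widths of 165, 180, 199 and 276 bp, and in 0 of 4 DND41 ACBI-1 libraries. MOLT4 cells had this peak in 2 of 4 libraries in each arm, with widths of 149 to 189 bp. At chr6:27725134-27725427 a peak of 246 to 253 bp was present in 3 of 4 DND41 DMSO libraries and in 0 of 4 with ACBI-1, and a peak of 199 to 293 bp in 4 of 4 and 3 of 4 MOLT4 libraries. The median peak of a whole list measured 282 to 443 bp.

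The width of always-open cluster regions did not pass the test for treatment. Their mean width was 773 ± 136 bp with DMSO and 734 ± 128 bp with ACBI-1 (SD over 8 libraries per arm), a change of -5.09% (exact permutation p = 0.231, adjusted p = 0.475). Elsewhere it went from 766 ± 77.0 to 693 ± 58.3 bp, a change of -9.45% (adjusted p = 0.0430 by the permutation test). The ratio of cluster to rest rose by 4.82%, which did not pass after adjustment (exact permutation p = 0.0216, adjusted p = 0.0843). Of the 58, 46 were narrower on average with ACBI-1 and 12 wider (20.7%), with ratios from 0.801 to 1.24. Among always-open regions elsewhere 16.1% were wider, which is near the share in the cluster. None of the 58 had all DMSO widths above all ACBI-1 widths, which held for 0.523% of always-open regions in the genome.

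The lines were compared next, with time and treatment held fixed. MOLT4 cells had more cluster peaks than DND41 cells. Their libraries had 89 to 97, with a median of 91, and DND41 libraries 76 to 93, with a median of 85.5, so the ranges overlapped. The number was 8.46% higher in MOLT4 (log2 0.12, SE 0.03, exact permutation adjusted p = 0.00401). Outside the cluster the lines differed by -2.30% (exact permutation p = 0.565). Relative to the rest of the list the cluster number was 11% higher in MOLT4 (adjusted p = 0.0234 by the permutation test), and this was lost without 1 DND41 ACBI-1 24 h library (replicate 1, adjusted p = 0.0702) or 1 MOLT4 ACBI-1 24 h library (replicate 2, adjusted p = 0.0502), with peaks under 170 bp removed (adjusted p = 0.0722), with regions required in at least 2 libraries (adjusted p = 0.137) and without strata (adjusted p = 0.402, all by the permutation test).

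The right clump had the largest line difference. MOLT4 libraries had 19 to 23 peaks there, with a median of 21, and DND41 libraries 14 to 20, with a median of 17.5. The number was 23% higher in MOLT4 (log2 0.30, SE 0.07, exact permutation adjusted p = 0.0201). In the left clump it was 6.90% higher (adjusted p = 0.0903) and in the stretch 3.28% higher (adjusted p = 0.544), neither past the threshold of the same permutation test. The ratio of the right to the left clump also missed it (15% higher in MOLT4, exact permutation adjusted p = 0.0736), so the clumps are not shown to differ in this respect.

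Region by region, 8 of the 11 testable cluster regions differed between lines. MOLT4 had the peak more often at 6 of them and DND41 at 2. Of the 11709 testable regions of the genome, 40.8% were called in favour of MOLT4 and 23.3% in favour of DND41, so the cluster's shares of 54.5% and 18.2% lay near the background for so few regions.

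Regions open in all 8 MOLT4 libraries and in no DND41 library numbered 3 in the cluster, a pattern that 0.945% of all regions of the genome had. The first, at chr6:26188591-26189615 in the left clump, had MOLT4 peaks of 512 to 956 bp, with a median of 723 bp. The second, at chr6:27218814-27219951 in the stretch, had peaks of 870 to 1138 bp, with a median of 930 bp, among the broader peaks of the cluster. The third, at chr6:27729571-27730679 in the right clump, had peaks of 340 to 1080 bp, with a median of 767 bp. The opposite pattern, which 0.291% of all regions had, was found at chr6:26312997-26313903, just inside the stretch, with DND41 peaks of 207 to 639 bp and a median of 480 bp. So complete a pattern always gives the smallest exact permutation p, 0.00154, here with an adjusted p of 0.0111, and these values add nothing to the pattern itself. The same pattern also fixes equal presence in both arms, so it carries no information on treatment.

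Other called regions were less complete. A peak at chr6:26305185-26305783 was in 6 of 8 DND41 and 0 of 8 MOLT4 libraries (180 to 584 bp, adjusted p = 0.0311, exact permutation test). It was the nearest region to the left of the DND41 region just described. At chr6:27782469-27782847 in the right clump, 7 of 8 MOLT4 and 0 of 8 DND41 libraries had a peak (196 to 340 bp, adjusted p = 0.0184, exact permutation test), a call lost with equal list lengths (p = 0.0833). At chr6:27280151-27280860, 8 of 8 MOLT4 libraries had a peak and 2 of 8 DND41 libraries, both of them DMSO at 3 h (adjusted p = 0.0267, exact permutation test). A peak at chr6:27759946-27760931 in the right clump was in 5 of 8 MOLT4 and 0 of 8 DND41 libraries (adjusted p = 0.0433, exact permutation test). That call was lost without 1 MOLT4 ACBI-1 3 h library (replicate 1, p = 0.0556), with regions built from midpoints within 250 bp (p = 0.50), with the replicate block (p = 0.0625) and without strata (adjusted p = 0.0715, all by the exact permutation test). At chr6:26607568-26608068, open in 8 of 8 MOLT4 and 3 of 8 DND41 libraries, the adjusted p was 0.0594 by the exact permutation test. It passed without DND41 DMSO 24 h replicate 1, DND41 ACBI-1 24 h replicate 2 or DND41 DMSO 3 h replicate 1 (adjusted p from 0.0342 to 0.0353 by the same permutation test), and with equal list lengths (adjusted p = 0.0421).

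Peak width in the cluster went with the time of harvest. The number of cluster peaks was 89.3 ± 3.77 at 24 h and 88.6 ± 7.17 at 3 h (SD, n = 8 each, log2 0.01, exact permutation adjusted p = 0.815). With equal list lengths the number was higher at 24 h (log2 0.08, SE 0.03, adjusted p = 0.0315 by the same permutation test). The median cluster peak was 562 to 659 bp wide in the 24 h libraries, with a median of 631 bp, and 395 to 510 bp in the 3 h libraries, with a median of 454 bp, and the groups did not overlap. Width was 34.9% larger at 24 h (log2 0.43, SE 0.06, exact permutation adjusted p = 0.00401). The tag in the peak names split the libraries in the same way, and its part in the result was not tested. The whole lists had medians of 347 to 443 bp at 24 h and 282 to 377 bp at 3 h.

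Always-open regions carried the same difference, and in the cluster it exceeded that of the genome. Their mean width in the cluster was 807 to 924 bp at 24 h, with a median of 867 bp, and 538 to 711 bp at 3 h, with a median of 674 bp, again without overlap. This was an increase of 36.0% (log2 0.44, SE 0.07, exact permutation p = 0.00154, adjusted p = 0.0150). Elsewhere the increase was 16% (adjusted p = 0.0150 by the permutation test). The ratio of cluster to rest was 1.02 to 1.18 at 24 h and 0.901 to 1.0 at 3 h, a rise of 17.2% (log2 0.23, SE 0.03, exact permutation adjusted p = 0.0150). The mean ratio was 0.947 ± 0.0345 at 3 h and 1.11 ± 0.0496 at 24 h (SD, n = 8 each), and all 8 libraries of 24 h lay above 1.

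**Figure D4:**
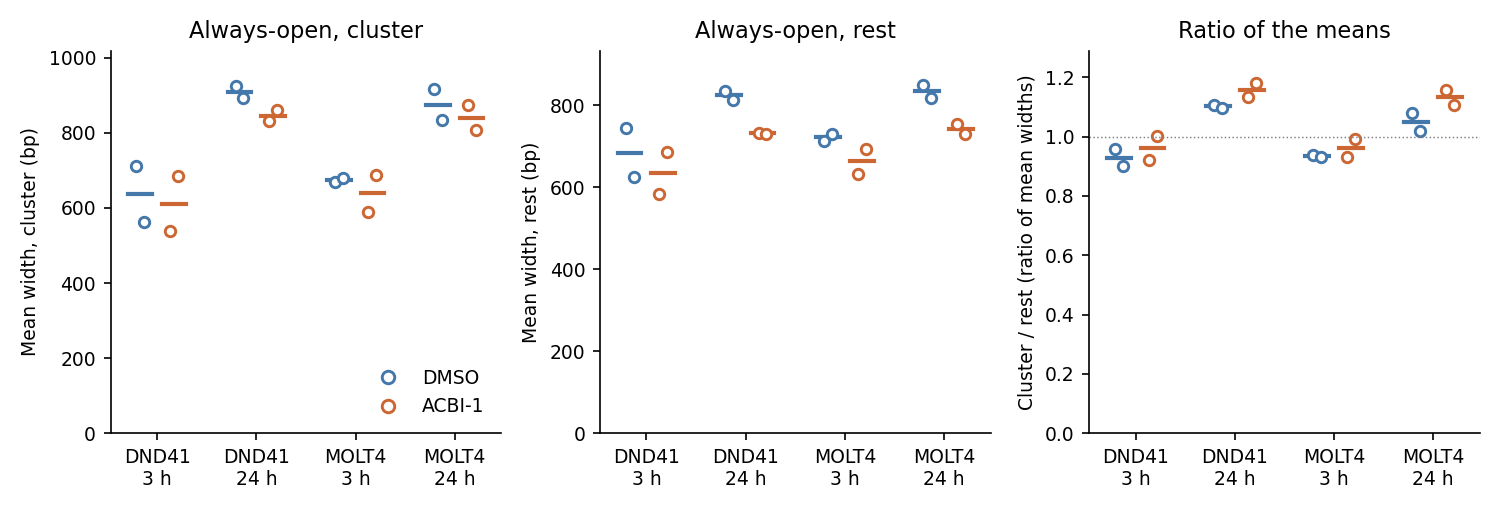
Mean width of always-open regions in the histone cluster (left) and in the rest of the genome (middle), in bp, and their ratio (right), by line and time, for DMSO (blue) and ACBI-1 (orange). Circles are libraries, 2 per group, bars are their means and the dotted line marks a ratio of 1. In the cluster the 24 h libraries, 807 to 924 bp, all lie above the 3 h libraries, 538 to 711 bp.

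All 58 always-open cluster regions were wider on average at 24 h, with ratios from 1.03 to 2.01 and a median of 1.31. Of the always-open regions elsewhere, 91.2% were wider at 24 h, with a median ratio of 1.15. At 6 of the 58 (10.3%) every 24 h library exceeded every 3 h library, against 1.94% of always-open regions in the genome. The ratio of mean widths between the clumps and the stretch was 3.87% higher at 24 h, which did not pass the test (exact permutation adjusted p = 0.544).

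The largest change was at chr6:26233110-26235319 in the left clump. Its summed peak width was 468 to 930 bp at 3 h, with a median of 763 bp, and 942 to 1814 bp at 24 h, with a median of 1500 bp. In 14 of the 16 libraries more than 1 peak was called inside it, up to 3. The widest region, at chr6:26020536-26022549, had 952 to 1360 bp at 3 h and 1476 to 1937 bp at 24 h. In the stretch, chr6:27099479-27101274 had 845 to 1019 bp and 1162 to 1760 bp, and chr6:27446128-27447799 had 711 to 1207 bp and 1285 to 1501 bp. None of these 4 regions overlapped between the times.

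Some broad regions had ratios close to 1. The isolated region at chr6:26923870-26924910 had 912 to 989 bp at 3 h and 929 to 1037 bp at 24 h, a ratio of 1.03. At chr6:26537454-26538928 the widths were 1119 to 1337 bp and 1253 to 1475 bp, a ratio of 1.09. Both were called as a single peak in all 16 libraries. The remaining 4 of the 10 widest had ratios from 1.29 to 1.67, with overlapping ranges.

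Treatment and time did not combine in a way that passed the test. The effect of ACBI-1 on the mean width of always-open cluster regions differed between 24 h and 3 h by -0.01 on the log2 scale (SE 0.14, adjusted p = 0.975, exact permutation test). Its effect on the cluster's share of the list differed by -0.09 (SE 0.09, adjusted p = 0.544, exact permutation test). Peak width also did not differ between the lines beyond the spread (2.04% wider in MOLT4, exact permutation adjusted p = 0.815).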

How the data were processed

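The 16 ATAC-seq libraries were analysed from the peak lists that the authors deposited, 1 per library, with 4 columns for chromosome, start, end and name. These positions carry no height, fold enrichment or p-value. Per the submitters' processing notes, the tools were MACS2, Bowtie2, SAMtools and Picard and the build hg19; their settings were not given in the sources used here. Peaks of the same library never overlapped. Read depth is unknown, and the precision of a peak count is seen only in the spread between libraries.

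Sequences other than chromosomes 1 to 22 and X were left out, and coordinates are counted from 1. The cluster limits were 26000000 and 27900000, with the clumps at 26.0 to 26.3 Mb and 27.7 to 27.9 Mb. A peak belonged to the cluster when it overlapped its limits, and to a clump by its midpoint. Measures per library were the number of cluster peaks, the bases they cover, their median width, the ratio of cluster peaks to other peaks and the percent of reference sites with a peak. Width of a region in a library is the sum of its peaks there. Differences are means over strata of log2 ratios.

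All tests of library measures were exact permutation tests, two-sided. Treatment labels were exchanged within line and time, line labels within time and treatment, and time labels within line and treatment. Each has 1296 exchanges, and the smallest p is 0.00154, or up to 0.0185 where exchanges tie, as for cluster peak number by time and its difference in treatment effect between times. Benjamini-Hochberg adjustment covered 13 tests of the main measures and, apart from these, 39 further tests on parts and widths. Regions were tested in the same way over the whole genome, with adjustment over all regions that could reach a p of 0.05 and a threshold of 0.05. The region test was tested on simulated data, in which presence was drawn without differences between lines, times or list lengths. Named regions were the 10 widest always-open ones, those with an unadjusted p of 0.05 or less for treatment or line, at most 10 of each, and those open in all libraries of 1 line or arm and in none of the other. The members, gene lists and tests were chosen with earlier results of these data known. The tests on always-open regions, site widths and the parts of the cluster were added after seeing the data.

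Alternatives were a midpoint rule, a common minimum width of 170 bp, equal list lengths, regions in at least 2 libraries, clump limits moved by 50 kb, regions from midpoints within 250 bp, a replicate block, no strata and each library left out in turn. The test without strata ran over all 12870 exchanges in place of the resampling planned, and for differences between effects the labels were exchanged within treatment. Promoters came from RefSeq's table for GRCh38.p14. Scripts ran in Python 3.11.15 with NumPy 2.4.6, pandas 2.3.3 and matplotlib 3.10.9.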

Additional observations from a re-analysis of the deposited data

How the results depend on the processing

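The fall in cluster peak number with ACBI-1 (log2 -0.10) depended on the processing. It was -0.0589 with a common minimum width (adjusted p = 0.258), -0.0960 without strata (adjusted p = 0.0747) and turned to 0.148 with equal list lengths (adjusted p = 0.00502, all by exact permutation tests). The clump to stretch ratio, not past the threshold, turned to -0.00312 with the minimum width and -9.08e-05 with equal lengths, and the treatment difference between times to -0.0662 with equal lengths. The share of the list, MOLT4 against DND41, missed the threshold with the minimum width (0.135), in regions of at least 2 libraries (0.0704) and without strata (0.151). Peak number at 24 h against 3 h passed it with equal lengths (0.0811). The cause of these shifts was not tested. The remaining results that answer a comparison kept direction and side of the threshold under the alternatives run, apart from libraries left out. With equal list lengths the share by treatment, there almost the same measure as peak number, shrank to 0.149. The sites kept shrank to 12.1 points over all sites, 14 over middle and 2.18 over broad ones.

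With each library left out in turn, the log2 values ranged from -0.114 to -0.0776 for peak number by treatment, 0.0988 to 0.135 for peak number by line, -0.00508 to 0.0316 for peak number by time, 0.345 to 0.408 for the share by treatment and 0.119 to 0.182 for the share by line. They ranged from -0.151 to -0.0454 for covered bases, -0.0502 to 0.0420 for median width by treatment, -0.0169 to 0.0753 by line and 0.386 to 0.478 by time. The clump to stretch ratio ranged from 0.0161 to 0.0697, the treatment difference between times from 0.0262 to 0.0996 and between lines from -0.0158 to 0.0576. Sites kept ranged from 17.6 to 19.7 percentage points, and regions called between lines from 8 to 10. The lone library left in a group was exchanged with its stratum.

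Same-numbered libraries of the 2 arms did not deviate together over the 131357 regions (correlations -0.040, 0.000901, -0.00333 and -0.00208). Presence of peaks in 2 libraries per group cannot show whether same-numbered libraries shared a culture or a preparation. With the replicate block the smallest p is 0.00781; peak number by treatment stayed at -0.0960 (adjusted p = 0.0169, exact permutation test) and 7 regions in place of 8 were called between lines. Peak positions without read counts limit what can be seen: a site that lost part of its signal but kept a peak counts as kept.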
